A study of Homo sapiens with 4 samples.

Results

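Steep borders of lamin B1 enrichment shared by 2 human prostate cancer cell lines were described here. A member was a 40 kb bin of chromosomes 1 to 22 at which the log2 enrichment of lamin B1 ChIP over input changed by at least 0.5 between the 8 bins before it and the 8 bins from it onward, in the same direction in LNCaP and in VCaP. This change, the difference of the 2 medians, is called the step, and the members were chosen by these measured steps. Of 65451 bins with a step in both lines, 1024 were members, which is 1.56% of them. Steps of neighbouring bins overlap, so members of 1 direction at most 120 kb apart were joined, which gave 288 borders, each placed at the member whose smaller step of the lines was largest.

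Both LNCaP and VCaP are established prostate cancer lines. The 4 libraries are 1 lamin B1 ChIP library and 1 input library without antibody of each line. All cells were grown in medium with serum and fixed with formaldehyde with no drug or genetic treatment named. LNCaP was grown in RPMI and VCaP in DMEM F12, so line and medium cannot be told apart. With 1 library per group no difference has a replicate check and no test was made. The rule used the enrichment itself, so the steps, the levels beside them and the deposited states, which derive from the same values, are descriptions. Depth is unknown, since read counts were not among the values used.

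Lamin B1 belongs to the nuclear lamina, the protein mesh under the inner nuclear membrane. Long stretches of chromatin that touch it, called lamina-associated domains, are as a rule poor in genes and weakly transcribed, and they alternate along a chromosome with gene-rich stretches of the nuclear interior. Their borders can be abrupt, and active promoters and CTCF sites are known to lie near many of them. All positions are in hg19 and counted from 1. A border is given by the first base of its bin, and going up the coordinates it either rises into higher enrichment or falls out of it.

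Borders rose about as often as they fell, and steps at borders were of similar size in both lines. The rule asks for at least 0.5 in each line, which limits how far the sizes can differ and sets them above most bins. Rising borders numbered 148 and falling borders 140, made of 498 rising member bins (0.761% of bins with a step) and 526 falling ones (0.804%). A border held a median of 4 member bins and at most 8, and 47 borders rested on 1 bin. The median absolute step was 0.62 log2 units in LNCaP (interquartile range 0.56 to 0.72) and 0.68 in VCaP (0.57 to 0.81), against medians of 0.14 and 0.19 over all bins. Rising and falling borders had medians of 0.61 and 0.62 in LNCaP and of 0.66 and 0.70 in VCaP. The noise of 1 step, from the odd against the even bins of the same library, had an SD of 0.10 in LNCaP and 0.15 in VCaP. This noise covers only variation between bins of 1 library.

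The threshold cut a continuous range of steps. The members just inside it were at 114080001 on chromosome 5, with steps of 0.63 in LNCaP and 0.50002 in VCaP, and at 64800001 on chromosome 12, with -0.500061 and -0.57. The bins just outside it were at 11800001 on chromosome 16, with -0.499849 and -0.52, and at 20840001 on chromosome 4, with 0.69 and 0.499774.

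Few bins that were steep in both lines had opposite directions. Of the 1052 bins with an absolute step of at least 0.5 in both lines, 97.3% had the same sign and are the members, and 28 (0.0428% of bins with a step) had opposite signs. Counted line by line, whether or not the other line was steep, LNCaP had 3431 steep bins (5.24%) and VCaP had 7392 (11.3%). The members were thus 29.8% of the LNCaP list and 13.9% of the VCaP list. Members have equal signs by the rule, so the other steep bins were counted without them. At the 2407 LNCaP steep bins that are no members, VCaP stepped in the same direction at 1808 (75.1%), with a median step in that direction of 0.18 (interquartile range 0.003 to 0.34). At the 6368 VCaP steep bins that are no members, LNCaP stepped in the same direction at 5535 (86.9%), with a median of 0.22 (0.09 to 0.33). Over all bins, members included, the signs were equal in 67.8%. Of the bins with an absolute step of at least 1, members were 35 of 118 in LNCaP (29.7%, close to the share of the whole LNCaP list) and 106 of 388 in VCaP (27.3%, above the share of the whole VCaP list). The largest LNCaP step at a border was 1.35, whereas the largest over all bins was 3.39.

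**Figure D1:**
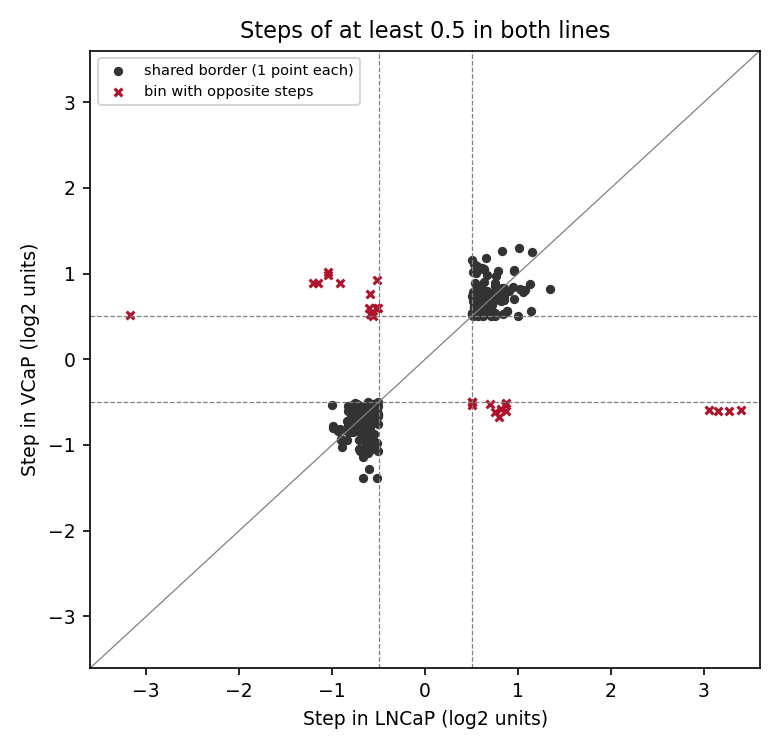
Step in VCaP (y axis) against step in LNCaP (x axis), in log2 units, for the 288 shared borders (1 point each) and for the 28 bins that stepped by at least 0.5 in both lines with opposite signs (crosses). Dashed lines mark steps of 0.5 and the solid line marks equal steps. Borders reach 1.35 in LNCaP, and the crosses farthest out exceed 3 in LNCaP only.

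On the side of higher enrichment the borders stood further above the genome in LNCaP, and on the lower side they stood further below it in VCaP. The median level of the 8 bins on the high side was 0.43 in LNCaP (interquartile range 0.26 to 0.60) and 0.39 in VCaP (0.19 to 0.63). The median on the low side was -0.22 in LNCaP (-0.38 to -0.05) and -0.33 in VCaP (-0.51 to -0.12). Measured from the median of all bins in the same line, the high side lay 0.37 above it in LNCaP and 0.20 above it in VCaP. The low side lay -0.28 from the median of all bins in LNCaP and -0.52 in VCaP. The high side exceeded the upper quartile of all bins at 190 borders in LNCaP and at 102 in VCaP, and the low side was under the lower quartile at 175 and at 217. Bins that were steep but no members showed the same order with a smaller gap between the lines: 0.42 and -0.20 from the median in LNCaP, and 0.29 and -0.38 in VCaP. Levels went from under 0 to over 0 at 212 borders in LNCaP and at 212 in VCaP, and in both lines at 166.

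In the median over the borders, enrichment showed a trough on the low side and a peak on the high side. Farther out the sides approached each other. Borders were chosen and placed by the contrast within 8 bins, and stretches of different width are pooled. The shape of single borders therefore cannot be read from these medians. Aligned with the low side to the left, the median LNCaP profile was lowest, at -0.31, in the bin centred 220 kb outside the border and highest, at 0.50, in the bin centred 220 kb inside it. The VCaP profile was lowest at -0.46, 220 kb outside, and highest at 0.45, 180 kb inside. Between 33 and 40 bins from the border the medians were 0.09 on the low side and 0.17 on the high side in LNCaP, and 0.10 and 0.13 in VCaP. The rule fixed a contrast within 8 bins of each border. Bins just beyond share averaged entries with it. They can also belong to the windows of the border's other member bins or of a neighbouring border.

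**Figure D2:**
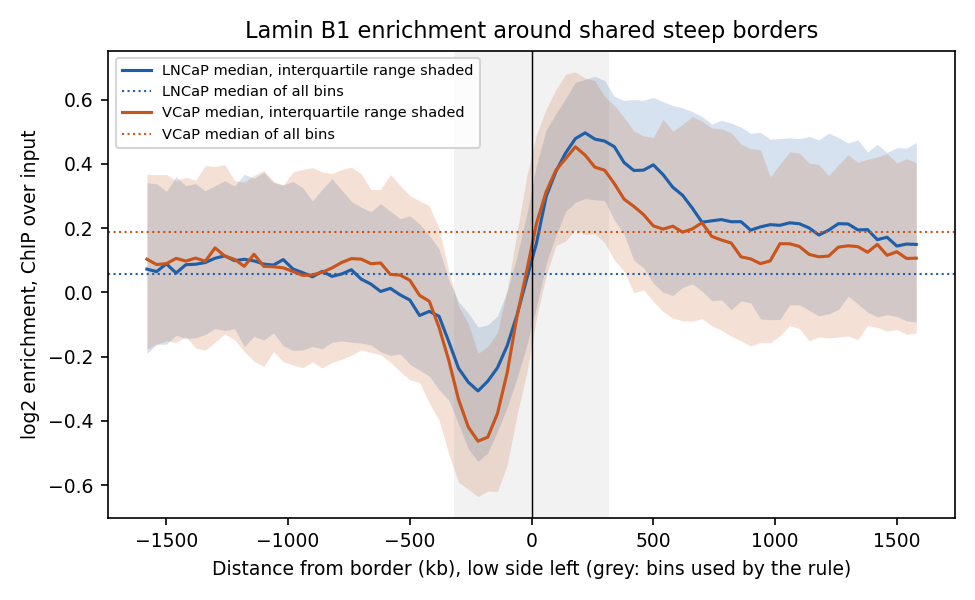
Median log2 enrichment (y axis) of LNCaP and VCaP by distance from the border in kb (x axis) over the 288 shared borders, turned so that the low side is on the left, with the interquartile range over borders shaded and the median of all bins dotted. The grey band marks the 8 bins on each side of the place of the border. Windows of a border's other member bins reach beyond it. Both lines show a trough of -0.31 and -0.46 and a peak of 0.50 and 0.45 inside the band, and beyond it the medians of the sides approach each other.

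In the next 8 bins the contrast was smaller but of the same direction at most borders. These bins lie outside the windows of the bin at which the border is placed. Where a border has further member bins, their windows reach into them, so these bins were not free of the rule. Between bins 9 and 16 (320 to 640 kb from the border), 276 borders had values on both sides. There the high side exceeded the low side by a median of 0.39 in LNCaP (interquartile range 0.14 to 0.62) and 0.29 in VCaP (-0.01 to 0.54). It was higher at 237 borders in LNCaP (85.9%) and at 204 in VCaP (73.9%). Of the 210 borders with no other border within 24 bins, 200 had these values. Among them the high side was higher at 185 in LNCaP (92.5%) and at 154 in VCaP (77.0%). This leaves out bins in the windows placed at other borders, but not those in the windows of a border's own further member bins. Over all bins with these windows, the difference of bins 9 to 16 had the sign of the step in 64.1% in LNCaP and 59.7% in VCaP. Steep bins that were no members gave 88.0% in LNCaP and 69.5% in VCaP, and member bins gave 87.5% and 77.2%, so in LNCaP the members did not exceed the other steep bins. Each side moved back at most of the 276 borders, and both sides did so at 142 in LNCaP and at 171 in VCaP. From the first 8 bins to bins 9 to 16 the low side became higher at 228 borders in LNCaP and at 233 in VCaP. The high side became lower at 166 and at 203. The rule chose the first 8 bins for their contrast, which favours such a return, and no count over other steep bins is given beside it. Between bins 17 and 32 the median difference was 0.15 in LNCaP and 0.09 in VCaP over 267 borders.

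The steepest bin lay at nearly the same place in both lines. Searching 8 bins to either side of each border, the bin with the largest step was the same at 74 borders (25.7%), at most 40 kb apart at 175 (60.8%) and at most 80 kb apart at 234 (81.2%). The median offset of VCaP from LNCaP was 0 kb, with VCaP further along the chromosome at 108 borders and LNCaP at 106. The rule asks for a large step of both lines in 1 bin, which favours small offsets. The 3 largest offsets were 320 kb at 27800001 on chromosome 4, -280 kb at 25960001 on chromosome 10 and 240 kb at 49560001 on chromosome 11, where the sign is that of VCaP minus LNCaP. At these bins the steps in LNCaP and VCaP were -0.53 and -0.54, 0.59 and 0.60, and 0.69 and 0.67. With windows of 4 bins those at 27800001 on chromosome 4 were -0.22 and -0.03.

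**Figure D3:**
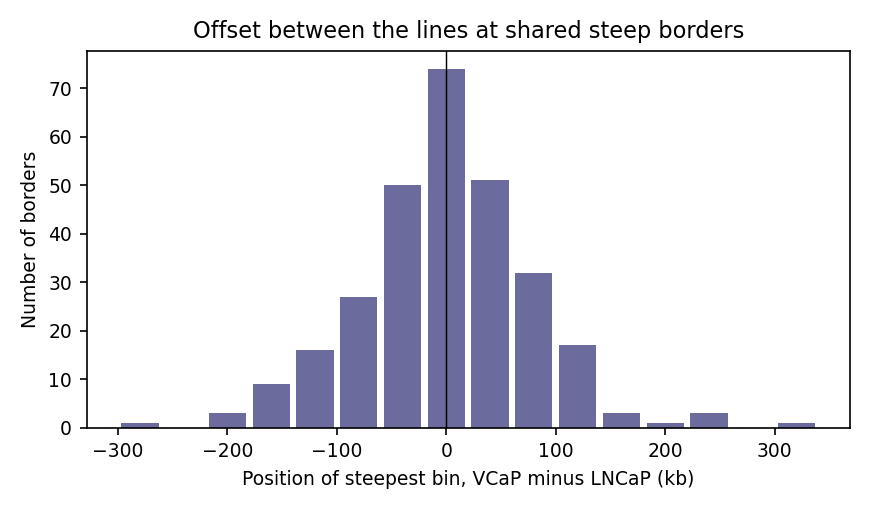
Number of shared borders (y axis) by the position of the steepest bin in VCaP minus that in LNCaP, in kb (x axis), over the 288 borders. The bar at 0 kb holds 74 borders, and 234 borders lie within 80 kb of it.

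The deposited tables also give 1 of 2 states per bin from a hidden Markov model, called AD and iAD. AD is the state with the higher enrichment, with a median of 0.40 in LNCaP and 0.55 in VCaP against -0.10 and -0.07 in iAD. At 229 of the 288 borders the LNCaP state changed in the direction of the step within 8 bins, and at 187 the VCaP state did. Both changed at 154 borders, which were 55.4% of the rising and 51.4% of the falling ones. Over all bins with a step, both states changed in the rising direction within 8 bins at 7.79% and in the falling direction at 7.99%. For single lines these shares were 21.4% and 21.5% in LNCaP and 26% and 25.8% in VCaP. Only the LNCaP state changed at 75 borders, only the VCaP state at 33 and neither at 26. AD covered 75.9% of the high-side bins and 14.02% of the low-side bins in LNCaP, and 60.7% and 13.4% in VCaP, against 37.4% and 44.0% of all bins. The 26 borders without a state change were mostly steps outside AD: all 16 bins were iAD at 23 of them in LNCaP and at 22 in VCaP.

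Borders were ranked by the smaller absolute step of the lines, and the first by this ranking was one of these. At 102280001 on chromosome 4 the enrichment rose by 1.15 in LNCaP, from -1.06 to 0.09, and by 1.25 in VCaP, from -1.29 to -0.04. With the 3-entry averaging of the deposited values undone, the steps were 1.12 and 1.31. Over the odd bins alone they were then 1.23 and 1.39, and over the even bins alone 1.15 and 1.29. These are the bins that the rule used, so they are no independent check. A falling border stood 320 kb before it, at 101960001, with steps of -0.89 and -1.02, and is the third of the falling ones in the ranking. The 8 bins between them ranged from -1.15 to -0.55 in LNCaP, with a median of -1.06, and from -1.88 to -0.48 in VCaP, with a median of -1.29. Every bin of that stretch was low in both lines. The bins to its left had medians of -0.17 and -0.26 and those to its right of 0.09 and -0.04, so it was a pit in chromatin that was itself outside AD. Neither line had an AD bin within 8 bins of either border.

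The next 4 rising borders of the ranking led into AD in LNCaP. At 87160001 on chromosome 11 the LNCaP median went from -0.35 to 0.66 and the VCaP median from -0.70 to 0.60, with steps of 1.01 and 1.30. Here the high side was still 0.63 and 0.42 at bins 9 to 16, and all 8 high-side bins were AD in both lines. At 114960001 on chromosome 3 the steps were 0.95 and 1.05, to high sides of 0.59 and 0.26. At 18120001 on chromosome 4 they were 0.95 and 1.02, to 0.69 and 0.48. At 50160001 on chromosome 6 they were 1.13 and 0.88, to 0.85 and 0.23. On chromosomes 3 and 6 the 8 high-side bins were all AD in LNCaP and none was AD in VCaP.

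The first falling border of the ranking stood at 79680001 on chromosome 7, with steps of -0.91 in LNCaP and -0.93 in VCaP. The LNCaP median fell from 0.49 to -0.42 and stayed at -0.42 at bins 9 to 16, a plateau on the low side. The VCaP median fell from 0.08 to -0.85 with no AD bin on either side. At 51680001 on chromosome 18 the steps were -0.90 and -0.95, from 0.71 and 0.57 to -0.19 and -0.37, and a gap in the table followed 10 bins after it. At 62440001 on chromosome 8 they were -0.84 and -0.94, and at 79800001 on chromosome 13 they were -0.84 and -0.84. On chromosome 13 the LNCaP low side of -0.41 was followed by 0.46 at bins 9 to 16, so the low stretch there was narrow. The VCaP low side of -0.49 was followed by -0.13.

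**Figure D4:**
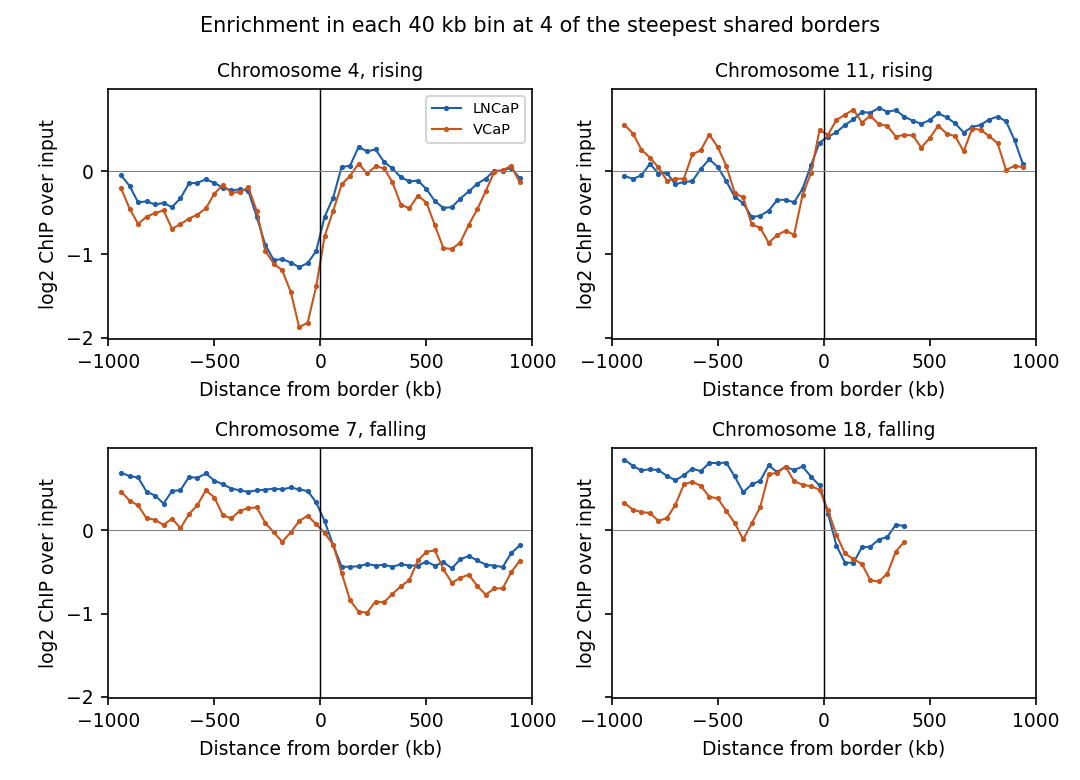
Log2 enrichment of LNCaP and VCaP in each 40 kb bin (y axis) by distance from the border in kb (x axis) at the first 2 rising borders (chromosomes 4 and 11) and the first 2 falling ones (chromosomes 7 and 18) by the smaller absolute step of the lines. The lines change level in the same direction near 0 kb. Their steepest bins lie 0, -80, -40 and 80 kb apart (VCaP minus LNCaP) on chromosomes 4, 11, 7 and 18. On chromosome 4 the low side is a pit of about 320 kb with medians of -1.06 and -1.29.

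The sizes of the steps were compared next, though the threshold in both lines limits how far they can differ. VCaP had the larger step at 170 borders and LNCaP at 118, with a median difference of 0.03 (interquartile range -0.04 to 0.14). The difference exceeded 2 SDs of the noise between bins of a library, 0.36 log2 units, at 29 borders, 25 of them larger in VCaP. This noise holds no variation between libraries. When VCaP steps were scaled to the spread of LNCaP steps, the order of the medians turned, and over the 151 borders then left LNCaP had 0.63 and VCaP 0.59. The largest excess in VCaP was at 35440001 on chromosome 17, with -0.52 in LNCaP and -1.38 in VCaP, where the VCaP high side was 0.88 and the LNCaP high side -0.34. With windows of 4 bins these steps were -0.13 and -0.33. It was followed by 37800001 on chromosome 6, with -0.67 and -1.38, and 37000001 on chromosome 9, with -0.61 and -1.29. In these 3 the VCaP high side was 0.88 to 0.91 and the LNCaP high side was 0.28 or lower, while the low sides were -0.37 to -0.51 in VCaP and -0.39 to -0.85 in LNCaP. The difference between the lines was therefore mostly on the high side.

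LNCaP had the larger step beyond 2 noise SDs at 4 borders. At 18000001 on chromosome 21 the steps were 1.14 and 0.56, at 48360001 on chromosome 10 they were 1.35 and 0.82, and at 86040001 on chromosome 4 they were 0.999 and 0.51. The last, at 22360001 on chromosome 21, had -1.001 and -0.53 and was named after its values were seen. On both chromosome 21 borders the LNCaP low side was very low, at -1.42 and -1.32, against -1.02 and -0.56 in VCaP, and the high sides were under 0 in both lines. On chromosome 10 the LNCaP low side was -1.09 and that of VCaP 0.06, and a gap in the table lay 12 bins before it. With windows of 4 bins the steps there were 0.16 and 0.53. Whether copy number or mapping moves with these LNCaP levels was not tested.

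Pairs of borders enclosed stretches that are named here domains or depressions by the order of their borders alone. The level inside a single stretch need not match its name. With partners at most 5 Mb apart and no other border between, 43 rising borders were followed by a falling one (a flanked domain) and 49 falling borders by a rising one (a flanked depression). Together these pairs used 151 of the 288 borders. Depressions were narrower, with a median width of 760 kb (interquartile range 440 to 2200 kb) against 1840 kb (920 to 3780 kb) for domains. Of the depressions 28 were at most 1 Mb wide, and of the domains 13 were. Within 2 Mb there were 36 depressions and 22 domains, and within 10 Mb 59 and 56, so the excess of depressions was among the near partners. The median level inside depressions was -0.16 in LNCaP and -0.23 in VCaP, and inside domains it was 0.44 and 0.26. AD covered 67.6% of the bins in flanked domains in LNCaP and 39.7% in VCaP, which is below the 44.0% of all VCaP bins. It covered 17.7% and 16.7% of the bins in depressions.

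The 3 narrowest depressions reached lower levels in VCaP. Over all flanked stretches the level inside was lower in VCaP than in LNCaP at 29 of 49 depressions and at 29 of 43 domains. On chromosome 11 from 31440001 to 31720000, 280 kb wide, bins ranged from -0.26 to 0.16 with a median of -0.22 in LNCaP, and from -0.78 to -0.16 with a median of -0.62 in VCaP. On chromosome 2 from 165480001 to 165800000, 320 kb wide, they ranged from -0.72 to -0.003 in LNCaP, with a median of -0.43, and from -1.16 to -0.19 in VCaP, with a median of -1.01. Their flanks were 0.52 and 0.32 in LNCaP and 0.04 and 0.45 in VCaP on chromosome 11, and 0.35 and 0.12 in LNCaP and -0.15 and -0.38 in VCaP on chromosome 2. The falling steps were -0.71 in LNCaP and -0.70 in VCaP on chromosome 11 and -0.77 and -0.85 on chromosome 2. The rising ones were 0.51 and 1.01, and 0.54 and 0.62. The third is the 320 kb pit on chromosome 4 described above. The lines overlapped in range in all 3, and VCaP had the lower median in each. At this width both 8-bin windows of the borders cover the same low bins, so the borders of such a pair are not independent.

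The narrowest domains stood above both flanks in both lines. On chromosome 10 from 48360001 to 48720000, 360 kb wide, the median was 0.24 in LNCaP and 0.88 in VCaP, between flanks of -1.09 and -0.39 in LNCaP and of 0.06 and -0.10 in VCaP. On chromosome 11 from 27680001 to 28040000, 360 kb wide, it was 0.48 in LNCaP and 0.36 in VCaP, and all 9 bins were AD in both lines. On chromosome 6 from 129000001 to 129400000, 400 kb wide, the medians were 0.67 and 0.09, and all 10 bins were AD in LNCaP and none in VCaP. The VCaP median of 0.09 was below that of all VCaP bins, 0.19. This stretch stood between flanks of 0.05 and 0.07 in LNCaP and of -0.61 and -0.49 in VCaP. It was thus a rise of like size from different floors, though the threshold in both lines limits how far the sizes can differ.

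The widest enclosed stretches are bounded by the limit of 5 Mb set for partners. The depression on chromosome 11 from 22760001 to 27680000 had medians of -0.21 and -0.44, with AD in 3.25% of bins in LNCaP and 1.63% in VCaP, and ended at the 360 kb domain of that chromosome. The depression on chromosome 5 from 98040001 to 103000000 had medians of 0.07 and -0.11, and AD covered 41.1% of it in LNCaP and 0.81% in VCaP. That on chromosome 4 from 73800001 to 78160000 had -0.37 and -0.19. The widest domains, on chromosome 1 from 218000001 to 222800000 and on chromosome 2 from 166960001 to 171760000, both 4800 kb wide, had medians of 0.24 and 0.14, and of -0.01 and -0.03. The third, on chromosome 12 from 11440001 to 15840000, had -0.06 and 0.12. On chromosomes 2 and 12 the median level between a rising and a falling border was thus close to 0 in LNCaP, and in VCaP it was so on chromosome 2.

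Borders were unevenly spread over chromosomes. There were 4.40 borders per 1000 bins with a step over all autosomes. Chromosome 4 had the most, with 6.94 per 1000 bins (32 borders), and chromosome 22 the fewest, with 1.20 (1 border). Chromosome 21 followed chromosome 4 with 6.07, from 5 borders in 824 bins, and chromosome 18 preceded chromosome 22 with 2.19, from 4 borders. On chromosome 4, 35.4% of the steep LNCaP bins and 26.3% of the steep VCaP bins were members. On chromosome 17 these shares were 19.3% and 3.85%, although 15.1% of its bins were steep in VCaP. The VCaP shares of chromosomes 4 and 17 were the highest and the lowest, but their LNCaP shares were not extreme. In LNCaP the share was 47.3% on chromosome 20, 42.3% on chromosome 18 and 16.7% on chromosome 19. The only border of chromosome 22, at 26200001, rose by 0.76 in LNCaP and by 0.81 in VCaP. The counts on short chromosomes are small, and chromosomes were not tested against each other.

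**Figure D5:**
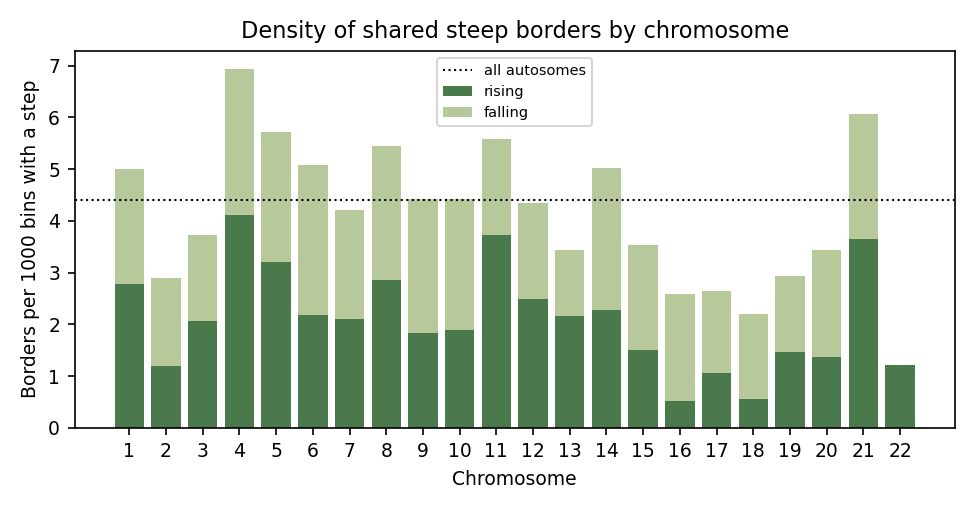
Shared borders per 1000 bins with a step (y axis) on chromosomes 1 to 22 (x axis), with rising and falling borders stacked and the value of all autosomes, 4.40, dotted. Chromosome 4 is highest at 6.94 and chromosome 22 lowest at 1.20.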

How the data were processed

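Lamin B1 ChIP and input libraries of LNCaP and VCaP, 1 each, were grouped by line and antibody. The authors deposited for each line a table of log2 ChIP over input enrichment per 40 kb bin, and 1 table of hidden Markov model states. Alignment used hg19, and STAR is named, per the submitters' processing notes. The scaling of ChIP to input is not given in the sources used here. Each deposited log2 value is treated as the mean of its entry and the 2 before it: undoing this brought the median absolute value of entries wider than 40 kb from 0.21 to 0.01 in LNCaP and from 0.33 to 0.01 in VCaP, and moved the steepest bin by -40 kb in both lines. Positions given here are those of the deposited values.

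Of 67170 autosomal bins of 40 kb with a value in both lines, 65451 had 16 contiguous bins. Noise is the scaled median absolute deviation of the odd-bin minus the even-bin step, divided by 2, after undoing the mean. Text names the first 5 borders per direction by the smaller absolute step of the lines, the 3 with the largest difference either way, the 3 largest offsets, the 3 narrowest and widest enclosed stretches, the bins nearest the threshold and extreme chromosomes. The members and these rules were chosen with earlier results of these data known. The procedure was tested on simulated data. No genome of hg19 was at hand, so genes, GC content and sequences at the borders, though planned, were not analysed here. Computation used numpy 2.4.6 and pandas 2.3.3 under Python 3.11.15, and matplotlib 3.10.9 drew the figures.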

Additional observations from a re-analysis of the deposited data

Results flagged for a closer look

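At 13 stretches, none of them a shared border, both lines stepped by at least 0.5 in opposite directions. With 1 library pair per line these differences were not tested. On chromosome 2 the step was -3.17 in LNCaP and 0.52 in VCaP at 47720001, and 3.15 and -0.60 at 48000001. On chromosome 3 it was -0.61 and 0.60 at 75440001, and 0.80 and -0.68 at 75840001. On chromosome 6 it was 0.86 and -0.53 at 20720001, and 0.50 and -0.53 at 84280001. On chromosome 7 it was 0.82 and -0.58 at 61480001, and -0.59 and 0.77 at 62920001. It was -0.56 and 0.50 at 106800001 on chromosome 8, -0.59 and 0.53 at 16680001 on chromosome 11, and -0.50 and 0.60 at 34240001 on chromosome 12. On chromosome 21 it was -1.05 and 1.02 at 9800001, and 0.51 and -0.50 at 25400001.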

How the results depend on the processing

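A count was taken as kept within 1.5 times its value, a share within its 95% binomial interval and a median within 1 noise SD. Of 98 alternative values for the results that answer a comparison, 75 were kept and 23 moved. The number of borders, though kept by this measure, was 423 with windows of 4 bins and 194 with windows of 12. For the 19 borders named by rank, difference or offset, 95 of 203 alternative steps moved and 0 changed sign, and 30 fell below 0.5, 13 of them with windows of 4 bins. Other borders named were not recomputed one by one. A threshold of 0.4 gave 2479 member bins and 624 borders, with 95.3% of bins steep in both lines of the same sign and members making up 36.9% of LNCaP and 19.6% of VCaP steep bins. A threshold of 0.6 gave 422 and 124, with shares of 24.7% and 10.1%. Scaling VCaP steps to the LNCaP spread gave 518 and 151, with 98.7% of the same sign and shares of 15.1% and 21.6%. Windows of 4 bins gave 93.0% of the same sign and shares of 37.1% and 10.6%, and windows of 12 bins gave shares of 23.7% and 15.5%. The VCaP share was 12.6% with means in place of medians and 12.7% with the averaging undone. Which bins were members depended on the window: 30.7% of the reported members were members with windows of 4 bins, 51.7% with 12 bins, 62.9% with means and 64.6% with the averaging undone. The LNCaP difference beyond the first 8 bins was 0.28 over bins 9 to 24, and 22 flanked domains had a partner within 2 Mb. Leaving out spans near gaps kept 97.2% of the members. Borders with no neighbour within 24 bins, and the averaging undone at bins 9 to 16, were added after seeing the data. At 3 other borders, named after their values were seen, the odd or even bins of a line alone gave the other sign with the averaging undone. They were 14080001 on chromosome 3, 81200001 on chromosome 4 and 69280001 on chromosome 9. The gene and GC description that was planned could not be made without an hg19 annotation. No paired analysis was possible because both lines have 1 ChIP library only.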
